A study of Caenorhabditis elegans with 2 samples.

Results

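Of the 642 peaks that the authors kept for the GFP-tagged protein B0310.2 in early Caenorhabditis elegans embryos, 229 (35.7%) lay in promoters of protein-coding genes and away from small RNA genes, and these 229 promoter peaks are described here. They were selected on the authors' signal and irreproducible discovery rate (IDR), which made the list, and then chosen by position. The summit had to lie no more than 1000 bp upstream or 300 bp downstream of where a protein-coding transcript begins, with no tRNA, tRNA pseudogene, snoRNA, snRNA or miRNA gene within 200 bp of it. Both samples came from strain OP642, which carries unc-119 (tm4063) III and the transgene wgIs642. In that transgene B0310.2 ends in a GFP-FLAG tag, and chromatin sheared by sonication was precipitated with an antibody to GFP. The embryos were whole, of both sexes, and taken at 0 h after bleaching of the culture to free the eggs. The 2 samples were labelled as biological replicates 1 and 2 of the same strain, so the map describes 1 transgenic line with no untagged or otherwise treated group beside it.

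The B0310.2 product belongs, by its annotation, to the zinc finger proteins, many of which bind DNA. A promoter is the stretch around the start of a gene where transcription begins. In C. elegans a spliced leader is joined to the front of most transcripts, so that the annotated 5′ end of a gene is often the splice site and the true start lies upstream of it. Many worm genes also share a promoter with a neighbour, either because the neighbours are transcribed away from each other (a divergent pair) or because they follow each other in an operon and are transcribed together.

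Sequences at the summits are shown first, so that the values can be read against them. The 6 bases CCGCAC, read on either strand, were in 37 of the 229 windows that extended 50 bp either way from the summit (16.2%). It was the only 6-base sequence that passed as more frequent than in weaker promoter regions. That call was lost from the list of replicate 1 alone, and in the full set with shorter promoter windows or with shorter or wider summit windows. In 21 of the 41 occurrences in these windows the bases GCAA stood exactly 5 bases before CCGCAC, an arrangement that was noticed after the windows had been seen. The 10 strongest promoter peaks with that arrangement, among those on chromosomes II to V and X, follow. Each stretch of 30 bases was read 5′ to 3′ from the WBcel235 (ce11) genome on the strand that holds CCGCAC, with GCAA and CCGCAC in capitals.
atx-2 (chrIII:10461310-10461339, minus strand): tatGCAAgtgcgCCGCACagggtttcgcaa
ears-2 (chrIV:390510-390539, plus strand): ttcGCAAggctgCCGCACgcttttgttgtc
C46F11.4 (chrIII:3664431-3664460, plus strand): ttcGCAAcgctgCCGCACgtagtttatgta
B0495.9 (chrII:7708768-7708797, plus strand): tttGCAAttctcCCGCACggagtcacacga
npp-8 (chrIV:1595995-1596024, plus strand): gttGCAAgtcccCCGCACacctcatcgtgt
krr-1 (chrV:7231048-7231077, plus strand): tatGCAAtgctgCCGCACgaattcctctct
F39G3.3 (chrV:4731567-4731596, minus strand): tttGCAAtgtccCCGCACagaatggctaat
swsn-3 (chrIII:2768843-2768872, plus strand): tttGCAAgagtgCCGCACgtggtttttttt
rps-28 (chrIV:1659240-1659269, minus strand): aatGCAAgagcgCCGCACggtttcgcctcg
R148.3 (chrIII:3175149-3175178, minus strand): tccGCAAtggtgCCGCACagagttaagagc

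The bases between and around the capitals differed from gene to gene, and the ears-2 window held related units before its own. There each GCAA and each following CCGC is in capitals, with 4 bases between them in the first pair of units, which do not go on to CCGCAC, and 5 in the last, which does. Windows of other strong promoter peaks are shown beside it because they did not hold the arrangement. K12H4.5 had the highest signal, and its capitals mark an alternating run of C and T (CTCTCTCTC, in 3.93% of the promoter peak windows and 0.536% of all promoters) and the self-complementary TCGCGA (3.49% and 0.821%). In ftt-2 and rpl-3 the capitals mark CCGCCGCC (1.75% and 0.165%), printed in ftt-2 as its reverse complement GGCGGCGG. In ftt-2 they also mark GCGCGC (15.7% and 1.33%). In W01D2.3 they mark TGACGTCA (1.75% and 0.621%). These letters were also found at other summits. CCGCCGCC was in 1.61% of the promoter regions ranked just below the list and 1.9% of the peaks outside promoters, where CTCTCTCTC was in 4.43% and TCGCGA in 3.16%. In the same 2 sets GCGCGC was in 5.22% and 7.59%, and TGACGTCA in 0.402% and 0.633%. Each share counts windows of this width that hold the letters on either strand, and the windows of all promoters were placed at the promoter peaks' median distance from each of 19973 5′ ends.
ears-2 (chrIV:390451-390551, plus strand): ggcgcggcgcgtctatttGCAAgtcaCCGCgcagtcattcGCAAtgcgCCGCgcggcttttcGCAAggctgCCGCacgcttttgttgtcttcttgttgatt
K12H4.5 (chrIII:8043933-8044033, plus strand): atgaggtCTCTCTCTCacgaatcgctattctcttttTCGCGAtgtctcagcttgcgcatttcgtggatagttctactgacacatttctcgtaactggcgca
ftt-2 (chrX:11605901-11606001, minus strand): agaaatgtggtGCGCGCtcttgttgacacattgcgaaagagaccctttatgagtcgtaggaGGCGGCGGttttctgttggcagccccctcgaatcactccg
rpl-3 (chrIII:3867511-3867611, plus strand): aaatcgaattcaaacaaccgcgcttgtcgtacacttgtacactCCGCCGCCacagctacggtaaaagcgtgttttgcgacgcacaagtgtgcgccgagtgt
W01D2.3 (chrII:14804645-14804745, minus strand): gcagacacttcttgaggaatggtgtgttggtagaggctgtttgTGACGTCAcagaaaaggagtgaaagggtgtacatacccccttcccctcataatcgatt

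The windows at T13C5.6 and ZK816.3, both on chromosome X, shared a stretch of 33 bases that holds CCGCAC without the spaced GCAA and is in capitals below. Most of the bases before this stretch were also the same in both, so the windows are near copies and not separate observations of a sequence. How reads that align to several places were treated is not given, so the assignment of reads to either copy is uncertain. Both windows also hold the tRNA B box, an internal promoter element of tRNA genes, if its sixth base may be any base. These were the only promoter peak windows of which that was true (2 of 229, 0.873%), against 84 of 255 (32.9%) at peaks near small RNA genes and 0.215% of all promoters. With the strict B box the count among the promoter peaks was 0 of 229, against 24.3% of the peaks near small RNA genes.
T13C5.6 (chrX:6207850-6207950, minus strand): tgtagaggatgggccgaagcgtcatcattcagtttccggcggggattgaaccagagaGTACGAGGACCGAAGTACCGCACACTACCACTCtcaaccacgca
ZK816.3 (chrX:3348040-3348140, minus strand): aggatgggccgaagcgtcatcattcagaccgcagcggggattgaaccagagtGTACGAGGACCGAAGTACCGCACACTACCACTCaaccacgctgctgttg

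The signal of a peak is the authors' own value on a scale that is not stated, and it selected the peaks, so it is given as a description with no test. Its median over the 229 peaks was 177.1 (quartiles 154.9 and 218.6, lowest 139.9, highest 911.7). The 255 peaks near small RNA genes had a median of 238 and the 158 peaks outside promoters a median of 161.2. Of the 229, 100 (43.7%) were among the 321 strongest peaks of the list, against 71.4% of the peaks near small RNA genes and 24.7% of those outside promoters. Most promoter peaks had the same width (214 of 229 were 476 bp wide), and their −log10 q value, also the authors', was between 2.03 and 2.47. The number of reads behind each value is unknown, because the region lists hold no read counts.

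**Figure D1:**
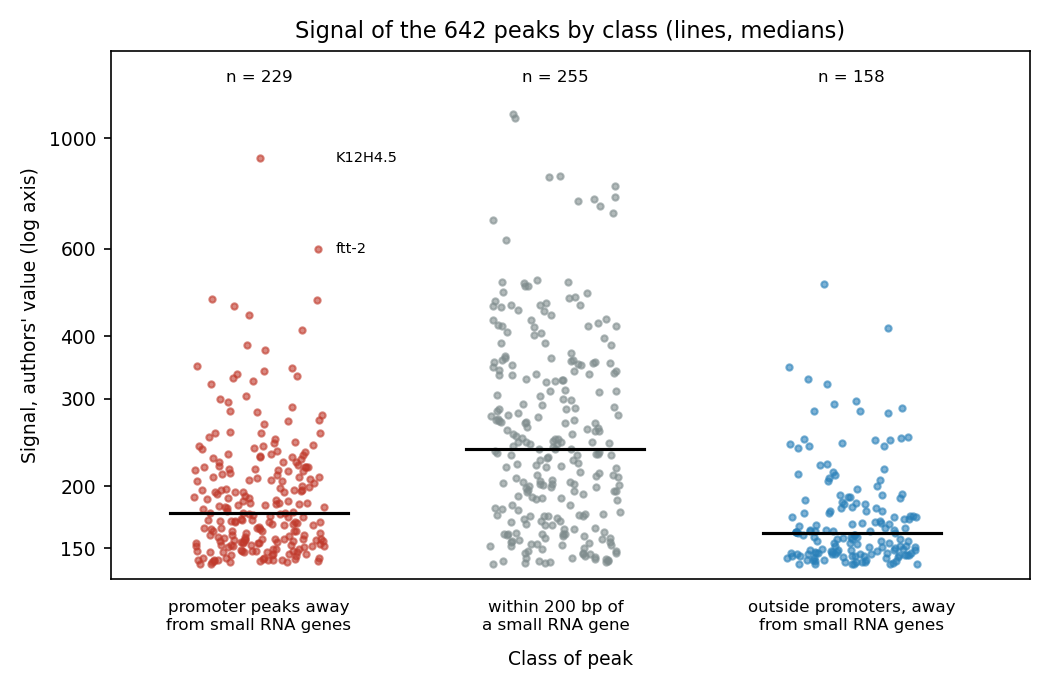
Signal of each of the 642 peaks on a log axis, by class, with the class median as a line and sideways scatter only to separate points. The median was 177.1 for the 229 promoter peaks away from small RNA genes, 238 for the 255 peaks near small RNA genes and 161.2 for the 158 others, and K12H4.5 and ftt-2 stood above the remaining promoter peaks.

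The strongest promoter peak was at K12H4.5, with a signal of 911.7 and rank 3 in the whole list. Its strongest overlapping region had a signal of 279.1 and rank 3 in replicate 1, and a signal of 633.6 and rank 3 in replicate 2. Ranks are compared between replicates here and signals are not, since each list has its own scale. The summit lay 504 bp upstream of K12H4.5, and the gene that follows closely on the same strand is spcs-3, which encodes a subunit of the signal peptidase complex.

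ftt-2, which encodes a 14-3-3 protein, an adaptor that binds phosphorylated partners, had a pair of summits, 532 and 731 bp upstream. Their signals were 599.3 and 345.3. Both overlapped the same region in each replicate, of rank 12 in replicate 1 and 14 in replicate 2. atx-2, the orthologue of ataxin-2 and an RNA-binding regulator, had its summit 58 bp upstream (signal 475.1, ranks 23 and 33 in replicates 1 and 2). T13C5.6 (473.0, ranks 34 and 22) and W01D2.3 (460.5, ranks 31 and 32) followed, with summits 213 and 386 bp upstream.

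rpl-3, which encodes a protein of the large ribosomal subunit, had a signal of 441.6 and ranks 49 and 35. ears-2, a glutamyl-tRNA synthetase gene, had 411.8 and ranks 33 and 59, with its summit 33 bp upstream. idhg-1, a subunit of the citric acid cycle enzyme isocitrate dehydrogenase, had 384.3 and ranks 73 and 54, with its summit 47 bp upstream. cbp-1, the worm homologue of the histone acetyltransferases CBP and p300, had 376.2 and ranks 127 and 45, with the summit 951 bp upstream. The histone pair his-31 and his-32 came next (349.7, ranks 67 and 89). From K12H4.5 to the his-31 and his-32 pair, each of these strongest peaks ranked between 3 and 127 in both replicates.

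The remaining peaks among the 30 strongest had signals from 256.1 to 340.2, apart from the lower ftt-2 peak. They included Y54G11A.2 (340.2), the shared promoter of the sorting nexin gene snx-13 and the splicing factor gene snr-1 (335.7), and dnj-29, a DnaJ-domain chaperone gene (332.9). fce-2 (330.3), a CAAX protease gene, pcrg-1 (325.0), nmad-1 (321.4), spe-48 (304.0) and C16C10.4 (296.0) followed. Signalling genes among them were egl-30, which encodes a G protein alpha subunit of the Gq class (299.9), and grk-1, a G protein-coupled receptor kinase (281.9). Genes of nuclear and protein-synthesis functions were myrf-2, a myelin regulatory factor homologue (288.7), eif-3.C, an initiation factor subunit (283.4), rps-11 (272.4) and chaf-2, a chromatin assembly factor subunit (270.2). The others were K05C4.2 (278.2), the stomatin gene sto-4 (266.9), the HSP70-family pair F44E5.4 and F44E5.5 (257.3), C46F11.4 (256.2) and B0495.9 (256.1). F44E5.4 and F44E5.5 are near-identical copies, and how reads that align to several places were treated is not given in the sources used here. In both replicates 29 of these 30 peaks ranked in the top 642, and C46F11.4 was the exception, with rank 1051 in replicate 1 and 122 in replicate 2.

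At the lower end, the weakest promoter peaks were at gob-1 (signal 141.2), eif-3.B (140.9), dmd-6 (140.8), vps-25 (139.9) and R02D5.24 (139.9). Just outside the list, the strongest promoter regions were at miz-1 (139.3), F12F6.1 (139.3), cfz-2 (139.3), cyn-13 (139.2) and dif-1 (139.2). The limit of the list thus fell in a continuous run of values.

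The promoter peaks ranked higher and over a narrower range in replicate 2 than in replicate 1. Ranked by signal in its own list of 30000 regions, the strongest region overlapping a promoter peak had a median rank of 454 in replicate 1 (quartiles 229 and 914, range 3 to 16171) and 344 in replicate 2 (quartiles 210 and 494, range 3 to 1231). In the top 642 of replicate 1 were 141 of the 229 (61.6%), in that of replicate 2 were 207 (90.4%), and in both were 125 (54.6%). A further 82 were in the top 642 of replicate 2 only, 16 in that of replicate 1 only, and 6 in neither. For peaks near small RNA genes the share in both was 82.4%, and for peaks outside promoters 39.9%. The pooled list that gave the peaks was made from the same alignments, so these ranks are no independent check of the peaks.

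Low ranks were found in replicate 1 alone. In replicate 1, 39 promoter peaks came after rank 1284, 18 of them after rank 4000 and 7 after rank 10000, while none of the 229 came after rank 1284 in replicate 2. By the ratio of the ranks, the largest difference was at vig-1, a component of the RNA-induced silencing complex, with rank 9187 in replicate 1 and 187 in replicate 2. T22F3.2 (10338 and 219), mekk-3 (14698 and 373), C06A6.2 (14307 and 375) and the shared promoter of ska-3 and the ribosomal protein gene rps-12 (13854 and 383) came next. Their signals in the pooled list were between 145.8 and 194.7, so such peaks were not limited to the weakest of the list. The median distance from a peak's summit to the summit of its replicate region was 24 bp in replicate 1 and 5 bp in replicate 2.

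**Figure D2:**
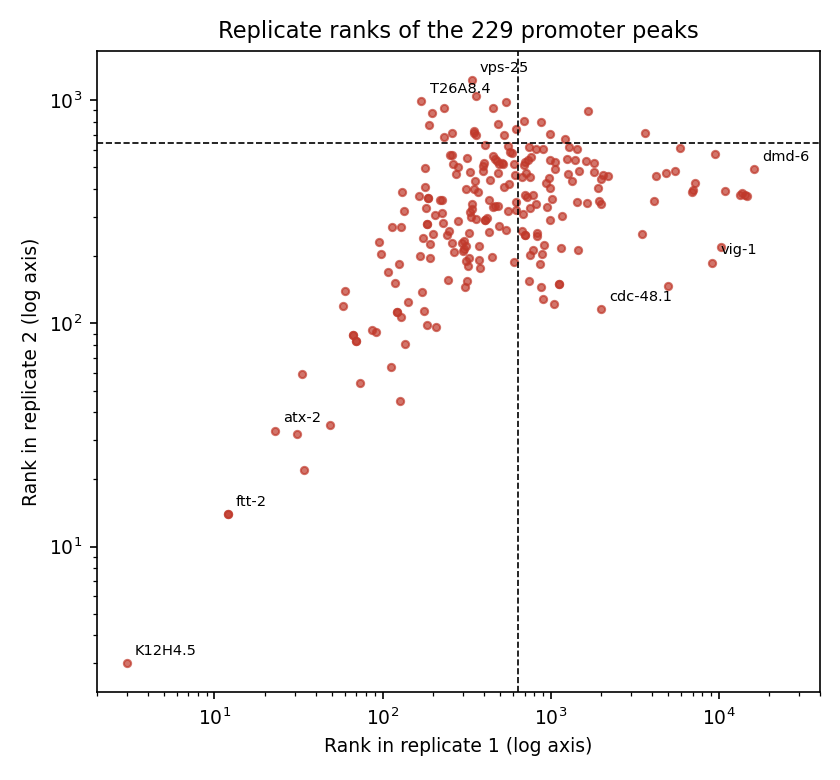
Rank of the strongest overlapping region in replicate 1 (horizontal) and replicate 2 (vertical) for the 229 promoter peaks, on log axes; dashed lines mark rank 642. The strongest peaks lie near the diagonal, and 82 points lie to the right of the vertical line and below the horizontal one, in the top 642 of replicate 2 only.

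A pair of peaks fell at the same promoter in 9 places, their summits 199 to 314 bp apart. Besides ftt-2 and the his-31 and his-32 promoter these were daf-19, a transcription factor gene of the RFX family that directs cilium formation, eel-1, a ubiquitin ligase gene, ptrn-1, which encodes a microtubule minus-end protein, grk-1, Y54G11A.2, gldi-8 and tos-1. Each pair overlapped a single region in each replicate, so that the 229 peaks rest on 220 regions in each, and paired peaks are not separate observations of the replicates. The weaker peak of each pair had 146.2 to 345.3 of signal.

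Summits lay mostly upstream of the annotated 5′ end. The median position was −209 bp (quartiles −441 and −88), negative values being upstream of the nearest 5′ end. The commonest stretch was from −300 to −101 bp, with 85 summits (37.1%), and 45 (19.7%) lay farther than 500 bp upstream. Downstream of the 5′ end were 27 summits (11.8%). For comparison, the same rules were applied to the regions ranked 643 to 1284 in the pooled list with a summit more than 500 bp from every peak summit, which gave 249 promoter regions ranked just below the peaks. Of these, 60 (24.1%) had a summit downstream (odds ratio 0.421, Fisher's exact test, two-sided, p = 0.00054, adjusted p = 0.0014 over 4 comparisons). The regions compared are sites of 1 map, so this p describes sites and not the spread between animals or cultures. The same window bounded the position in both sets. Peaks of a pair were counted separately in this comparison, although each pair rests on a single region in each replicate.

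Histone genes, whose products package DNA, stood out among the downstream summits by count: 5 of the 8 peaks at histone promoters had their summit 156 to 256 bp downstream of the nearest 5′ end, against 22 of the other 221 peaks. These 5 were at his-32 (203 bp downstream), hil-3, a linker histone gene (156 bp), his-60 (191 bp), his-72, an H3.3 gene (199 bp), and his-1 (256 bp). No test was made, since the group was noticed after the values had been seen. Other genes with a downstream summit were the centrosome scaffold gene spd-5 (203 bp), the Mediator subunit gene mdt-26 (96 bp) and cox-5B, a cytochrome c oxidase subunit gene (49 bp). The 27 downstream peaks had a median signal of 168.4 and the remaining peaks one of 178.8.

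**Figure D3:**
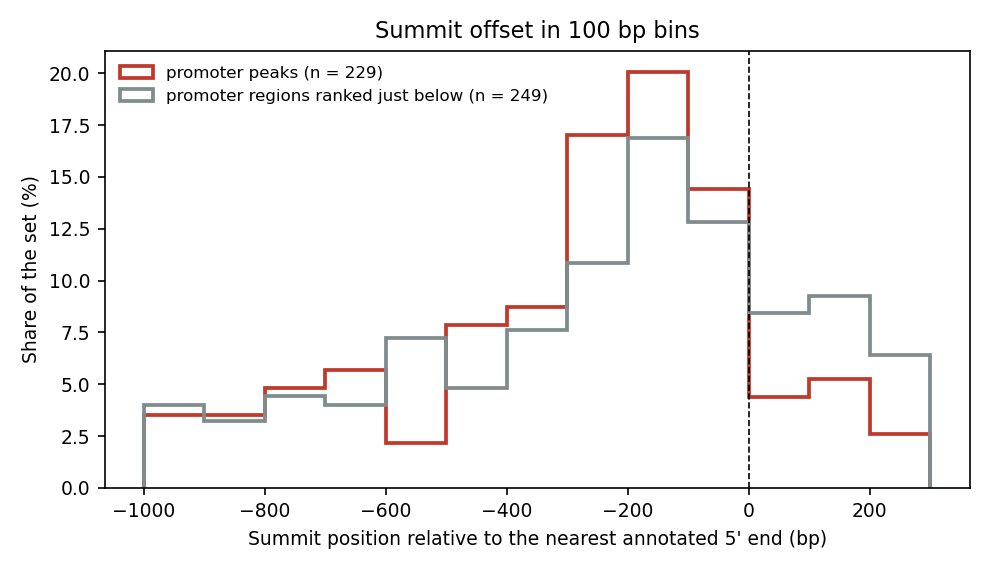
Position of the summit relative to the nearest annotated 5′ end of a protein-coding transcript in bins of 100 bp, as a share of the 229 promoter peaks and of the 249 promoter regions ranked just below. Both sets are commonest upstream of the 5′ end, and 11.8% of the peaks against 24.1% of the lower regions have a summit downstream.

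A total of 64 peaks (27.9%) lay in the promoter windows of genes on both strands, called divergent here, as did 51 of the 249 regions just below (20.5%), and this difference did not pass (odds ratio 1.506, Fisher's exact test, two-sided, p = 0.068, adjusted p = 0.091). With peaks taken from the list of replicate 1 alone the difference passed, with an odds ratio of 1.726 and an adjusted p of 0.037 by Fisher's exact test. The strongest divergent promoters were those of atx-2 and ecps-1, ears-2 and uncp-18, idhg-1 and mlcd-1, and his-31 and his-32. snx-13 and snr-1, dnj-29 and fld-1 with ndua-2, pcrg-1 and E04F6.6, nmad-1 and hach-1, spe-48 and Y51F10.11, and C16C10.4 and rnf-121 completed the 10 strongest. At divergent promoters the summit was a median of 148.5 bp upstream of the nearest 5′ end, and at the 165 promoters with genes on 1 strand 272 bp. A divergent peak always has more than 1 gene from which the nearest 5′ end is taken. The shorter distance was therefore partly fixed by the definition, and nothing is read from it. The median signals were 176.7 and 177.4. A window of 1 gene held 160 of the peaks, windows of 2 genes 62, and windows of 3 genes 7, which brought the number of genes with a peak to 294.

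Operons were not annotated in the files used, so closely spaced genes on the same strand stood in for them. A start was counted as operon-like if the next protein-coding gene on the strand began within 500 bp of the end of the first and none ended within 500 bp before it. Of the peaks, 43 (18.8%) were at such starts, against 49 of the 249 regions just below (19.7%), a difference that did not pass (odds ratio 0.9436, Fisher's exact test, two-sided, p = 0.82, adjusted p = 0.82). Of all protein-coding genes, 2658 of 19973 (13.3%) were operon-like starts. After K12H4.5, the strongest were snx-13 (followed by Y116A8C.25), K05C4.2 (followed by the proteasome subunit gene pbs-5), sto-4 (T04F8.8), C46F11.4 (C46F11.5) and B0495.9 (luc-7L, a splicing factor gene). K05C4.7 (signal 251.4) is followed by hmp-2, a beta-catenin gene of cell adhesion. drap-1 (237.4, followed by cal-7), his-68 (235.3, followed by alg-5) and ippk-1, an inositol phosphate kinase gene (231.3, followed by nadk-2), completed the 10 strongest. The median signal at operon-like starts was 185.2.

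Promoter peaks were counted at the genes of 21 lists, grouped by function. Of all 19973 protein-coding genes, 294 (1.47%) had a peak, and this share is the background for the counts that follow. A gene was counted if a summit lay in its promoter window, even where another gene was nearer to the summit. Such genes included mex-1, rab-7, prp-19 and hsp-60, with summits 879, 827, 617 and 611 bp upstream. The lists were chosen with earlier results of these data known, and genes that share a peak are not independent, so the lists are described and not tested.

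Cytosolic ribosomal protein genes had a peak at 12 of 81 promoters (14.8%), and no peak was shared between genes of this list. Some of the peaks also lay in the promoter window of another gene. At rpl-20, rps-19 and rps-12 that gene was nearer to the summit (Y17G9B.5, hsr-9 and ska-3). The signals of the 12 peaks had a median of 188.9 (lowest 141.9, highest 441.6). All 12 summits were upstream of the ribosomal protein gene, by 71 to 533 bp, with a median of 282.5 bp. After rpl-3 and rps-11, the strongest were rpl-15 (signal 223.7, ranks 316 and 222 in replicates 1 and 2), rps-28 (207.7, ranks 130 and 389) and rpl-24.2 (203.5, ranks 428 and 257). rpl-35 (189.6) and rpl-20 (188.2) lay near the median of all promoter peaks, and rpl-7A (150.9), rps-19 (149.9), rps-23 (147.9), rps-12 (147.7) and rps-1 (141.9) were among the weaker ones. Of the 12, 6 were in the top 642 of replicate 1 and 10 in that of replicate 2. From the list of either replicate alone, 7 (replicate 1) and 11 (replicate 2) ribosomal protein genes had a peak. Of the other genes of protein synthesis, 2 of 44 translation factor genes (eif-3.C and eif-3.B) and 1 of 32 aminoacyl-tRNA synthetase genes (ears-2) had one.

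Histone genes had a peak at 12 of 82 promoters (14.6%). Since histone genes stand side by side, only 8 peaks account for them: his-31 and his-32 (signals 349.7 and 146.2), his-67 and his-68 (235.3), hil-3 (232.6), his-59 and his-60 (227.4), his-61 and his-62 (180.1), his-72 (178.3) and his-1 and his-2 (163.0). Many histone genes are near-identical copies, so the assignment of reads to a single copy is uncertain. The windows of his-60 and his-1 shared 20 bases.

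Chaperone and unfolded protein response genes had a peak at 7 of 71 (9.86%). These were dnj-29, pdi-2, a protein disulfide isomerase gene (240.9), xbp-1, the transcription factor of the endoplasmic reticulum stress response (215.6), hsp-1 (198.6) and hsp-3 (186.8), HSP70-family chaperones of the cytosol and of the endoplasmic reticulum, hsp-60, a mitochondrial chaperone (176.5), and dnj-13 (143.3). The list, made by gene name, does not hold the HSP70-family pair F44E5.4 and F44E5.5 described above. In the mitochondrion, 3 of the 47 respiratory chain genes on the list had one: the cytochrome c oxidase subunit genes cox-5A (219.4), cox-6B (176.9) and cox-5B (146.5). The list was made by gene name and leaves out genes with ndu names, of which ndua-2, at the dnj-29 peak, and nduc-2, at the cox-6B peak, also had one. Both encode subunits of complex I and were named after their values had been seen. Genes with ndu names were not counted, so no share is given. Of the same naming, ndua-1 and nduf-2.2 were at promoter regions ranked just below the peaks. Of the 22 citric acid cycle genes, idhg-1 and dlst-1 (154.2) had one.

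Cell cycle genes had a peak at 7 of 95 (7.37%). The strongest was at cdc-48.1, which encodes an AAA ATPase that unfolds ubiquitylated proteins (248.4, rank 1985 in replicate 1 and 116 in replicate 2). sas-5, a centriole assembly gene (219.0), lin-35, the retinoblastoma homologue (205.1), and cki-1, which restrains cyclin-dependent kinases (177.1), followed. mcm-10, a replication factor gene, had 168.6, cdk-9, a kinase gene of transcription elongation, 159.0 and spd-5 152.7. The lin-35 peak also lies in the promoter window of vps-51.

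Genes of chromatin and transcription had one at 7 of 128 (5.47%). After cbp-1 came swsn-3, of the SWI/SNF nucleosome remodelling complex (210.9), jmjd-1.2, a histone demethylase gene (199.5), and swsn-7, of the same complex as swsn-3 (157.0). mdt-26 had 154.2, set-21, a SET-domain gene that shares its peak with rpl-7A, 150.9 and taf-4, a subunit of the general factor TFIID, 142.9. Genes of vesicle traffic and small GTPases had one at 6 of 104 (5.77%): snx-13, rab-7 (239.0), vps-51 (205.1), sec-61.G (156.1), rab-14 (153.5) and vps-25. Of 45 RNA-binding and germline regulators, atx-2, mex-1 (239.0) and puf-9 (155.4) had one, and mex-1 and rab-7 share the same peak. Of 44 splicing genes, snr-1 and prp-19 (157.0) had one.

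Lists of regulators of cell identity, of genes of differentiated tissues and of proteasome subunits had few or no peaks. No promoter peak was counted among 96 endoderm and early lineage regulators, 63 homeobox ceh genes, 171 cuticle collagen genes, 29 pan-neuronal genes or 33 proteasome subunit genes. At the background share of 1.47%, lists of these lengths would hold only a few genes with a peak or none, so nothing is read from these counts of 0. Nuclear hormone receptor genes had 1 of 272 (0.368%), nhr-66 (155.7). Chemoreceptor genes had 3 of 1287 (0.233%), and each of the 3, sre-1 (256.1), sri-5 (214.9) and srh-16 (158.2), lay at a promoter with another gene on the other strand. Of 40 muscle genes, act-2 (169.7) had one (2.5%), and of the 2 genes of 14-3-3 proteins ftt-2 had one. Nothing is read from a single gene in lists as short as these.

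**Figure D4:**
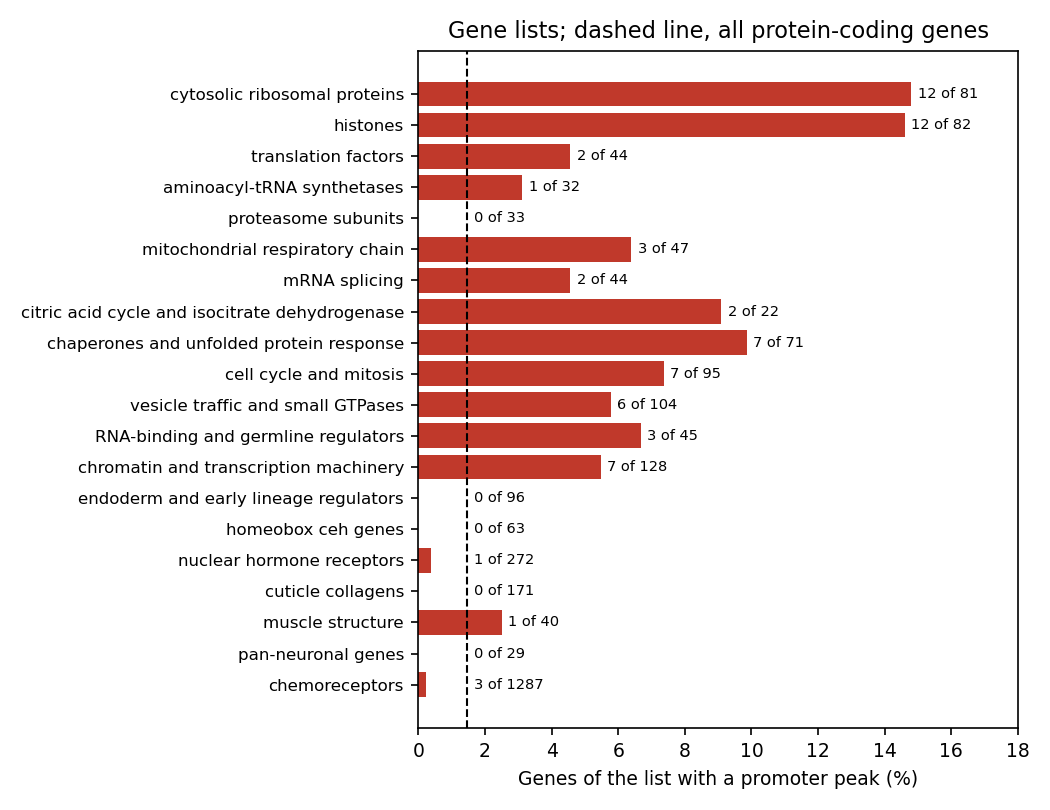
Share of the genes of each list that have a promoter peak, with the count beside the bar; the dashed line is the 1.47% of all 19973 protein-coding genes. Ribosomal protein genes (14.8%) and histone genes (14.6%) have the longest bars, and 5 lists have none; the list of 14-3-3 proteins, with 2 genes, is not drawn.

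Sequence at the summit was richer in G and C than at promoter regions ranked just below. The mean GC content of the window around the summit was 48.19% ± 9.18 (SD over 229 windows) against 45.3% ± 9.542 (SD over 249), a difference of 2.893 percentage points (permutation test, two-sided, p = 0.00072, adjusted p = 0.0014 over the same 4 comparisons). Windows centred 500 bp to each side of the summits had 37.07% ± 9.469, and those of all promoters 34.27% ± 8.241. Peaks near small RNA genes had 50.07% and peaks outside promoters 48.11%, so a high GC content was not a property of the promoter peaks alone.

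Of all 6-base sequences, joined with their reverse complements and compared between the promoter peaks and the regions just below, 1 was more frequent in the peaks (0.0481% of those tested), CCGCAC. It was in 37 of 229 windows (16.2%) against 10 of 249 (4.02%), and the two-sided Fisher's exact test gave an odds ratio of 4.606, p = 9.5e-06 and an adjusted p of 0.02. None was less frequent (0.0% of those tested; Fisher's exact test gave 45 less frequent and 65 more frequent ones at an unadjusted p under 0.05). In windows that the comparison did not use, CCGCAC was in 0.873% of the flanks of the promoter peaks, 2.75% of peaks near small RNA genes, 2.53% of peaks outside promoters and 1.57% of all promoters. With peaks and lower regions taken from the list of replicate 2 alone Fisher's exact test gave an odds ratio of 4.847 and an adjusted p of 0.0055. Without replicate 2, that is from the list of replicate 1 alone, it was 1.78 and did not pass (Fisher's exact test, adjusted p = 1.0). The call therefore rests on replicate 2.

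Along the ranks the share fell in each list. In the pooled list it was 21% for promoter regions ranked 1 to 321 (exact 95% interval 13.5 to 30.3%), 12.4% for ranks 322 to 642 (7.26 to 19.4%), 4.56% for ranks 643 to 1284 and between 1.94 and 3.02% in every lower range. In replicate 1 the share was 19.8% in the first range, 8.33% in the second, 8.05% in the third and 2.75% in the fourth, so that it fell at a lower rank than in replicate 2, where the first 4 shares were 21.8, 10.9, 3.91 and 4.33%. The intervals cover counting error only. CCGCAC was picked for its difference between the peaks and ranks 643 to 1284, so the fall across these ranks is a description. The replicate lists share their alignments with the pooled list. GC content fell along the same ranks, from a mean of 48.9% in the first range of the pooled list to 38.6% in the last, and its part in the decline was not tested. With the windows split into 3 ranges of GC content, CCGCAC was in 22 of 90 peaks and 6 of 67 lower regions in the highest range, in 12 of 78 and 2 of 75 in the middle and in 3 of 61 and 2 of 107 in the lowest. CCGCAC was picked for its difference between these same windows, so these counts are a description and no check on GC content.

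**Figure D5:**
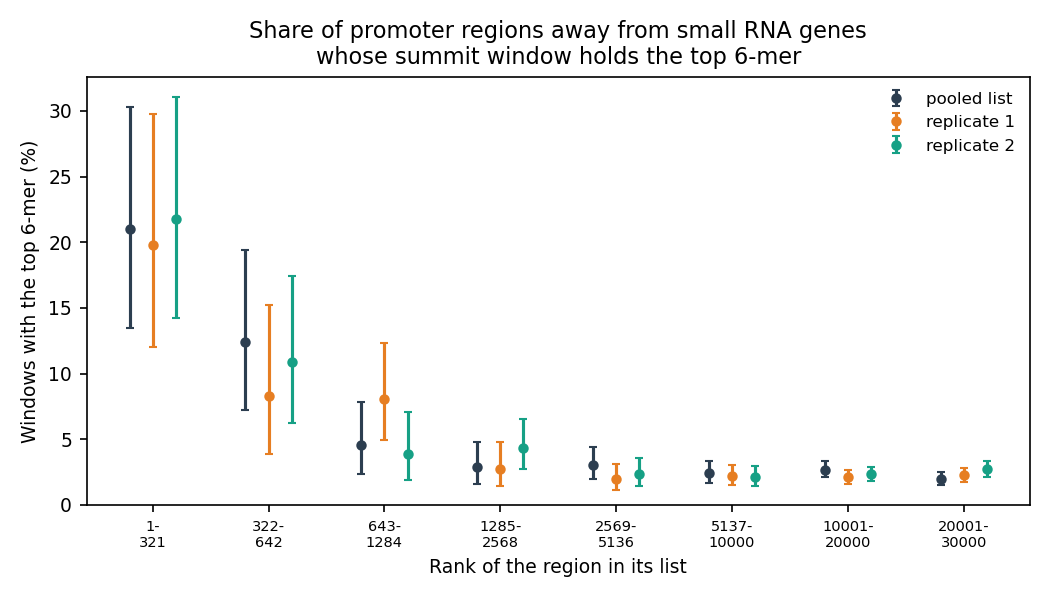
Share of promoter regions away from small RNA genes whose summit window holds CCGCAC on either strand, by rank of the region in the pooled list and in each replicate's list, with exact 95% intervals for counting error. The share is 21, 19.8 and 21.8% for ranks 1 to 321 in the pooled list, replicate 1 and replicate 2 and between 1.94 and 2.72% for ranks 20001 to 30000.

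The spaced arrangement of GCAA and CCGCAC was rarer still away from the promoter peaks. It was in 20 of the 229 windows (8.73%), in 1.2% of the regions just below, in 0 of 458 flanks, in 0 of 255 peaks near small RNA genes, in 0 of 158 peaks outside promoters and in 0.125% of all promoters. Since it was noticed in the same windows, these shares are a description. In the whole genome, of 14409 occurrences of CCGCAC, 555 had GCAA 5 bases before, 423 had it 3 bases before and 122 had it 4 bases before, and other distances from 0 to 11 bases had 34 to 125 each. In the promoter peak windows 1 occurrence each had a distance of 3 and 4 bases, and 21 had a distance of 5.

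The 37 promoter peaks with CCGCAC had signals from 147.3 to 475.1 with a median of 192.6, and their median ranks were 333 in replicate 1 and 290 in replicate 2. In both replicates 22 of the 37 were in the top 642. The occurrence lay a median of 21.5 bp from the summit, on the strand of the nearest gene in 15 cases and on the other strand in 26. The summits were a median of 160 bp upstream of the 5′ end, and 26 of the 37 lay from 300 bp upstream to the 5′ end itself. Besides atx-2 and ears-2, genes with the spaced arrangement included npp-8, a nucleoporin gene (signal 229.5), krr-1, a ribosome biogenesis gene (224.3), swsn-3 and rps-28, as the stretches printed above show.

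Other 6-base sequences differed without passing. GCGCGC was in 15.7% of the promoter peak windows and 5.22% of the regions just below (Fisher's exact test, adjusted p = 0.19), CGCGCA in 19.7 and 8.03% (0.19), GCCGCA in 14 and 5.22% (0.51) and CGCATA in 4.8 and 0.402% (0.51). Lower in the promoter peaks were GAGAAC (2.62 and 10.0%), ATTTAG (1.31 and 6.83%), TTTCAG (4.37 and 12%), AGCCTA (0 and 3.61%) and GCCACC (1.75 and 7.23%), each with an adjusted p of 0.51 by Fisher's exact test. TTTCAG is the usual splice acceptor sequence in C. elegans, and it was in 22.7% of the flanks and 17.0% of all promoters.

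Of the promoter motifs described without a test, the TATA box TATAAA was in 4.37% of the promoter peak windows, 8.95% of their flanks and 13.2% of all promoters. A run of 8 T bases was in 2.62, 11.6 and 13.0%, and TGATAA, the core bound by GATA factors, in 3.93, 10.5 and 11%. Motifs of G and C bases took the reverse order: the Sp1-like CCGCCC was in 15.3, 1.97 and 2.3%, AGCGCG in 12.2, 0.873 and 1.71%, and AGAGCG in 11.8, 1.31 and 2.14%. GAGAGA was in 17.9, 5.46 and 7.18%, and CTGCGTCT in 5.68, 0.437 and 1.17%. The shares of the regions just below lay nearer to those of the peaks for GAGAGA (15.7%) and CTGCGTCT (4.82%) than for CCGCCC (6.83%). Other peaks held some of these motifs as often or more: AGAGCG was in 21.2% of peaks near small RNA genes, and GAGAGA in 20.9% and CTGCGTCT in 6.96% of peaks outside promoters. The E-box CACGTG (3.49, 2.18 and 1.57%) and the E2F-like TTCCCGC (1.75, 1.31 and 1.23%) differed little between the windows. Mean GC content was 48.19% in the promoter peak windows, 37.07% in their flanks and 34.27% in all promoters. Its part in the shares of these motifs was not tested.

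The promoter peaks were spread over all 6 chromosomes. Chromosome III held 52 (22.7%, with 13.2% of the protein-coding genes) and V held 29 (12.7%, with 25% of the genes). X held 40 (17.5% and 13.7%), II 38 (16.6% and 17.3%), I 36 (15.7% and 14.4%) and IV 34 (14.8% and 16.4%). Among the regions just below, chromosome III held 15.7% and V 16.1%.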

How the data were processed

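The samples were 2 replicates of anti-GFP chromatin immunoprecipitation in early embryos. Per the descriptions deposited with the samples, lists of peaks and background regions were made by the authors from each replicate with a control alignment and from both replicates pooled, 30000 regions each. The list of 642 peaks is what remained after IDR thresholding, a step meant to keep regions that rank alike in replicates. Not every peak did so: 39 of the 229 promoter peaks came after rank 1284 in replicate 1 and none in replicate 2. By signal, ranks 1 to 321 of the pooled list held 100 promoter regions away from small RNA genes, as did the strongest 321 peaks. Ranks 322 to 642 held 129. For the caller, aligner, depth and threshold, the sources used here give nothing. The deposited lists hold a signal value, a −log10 q value and a summit position per region. Signal ranked regions within a list. Lists of build ce10 were not used here.

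The ce11 lists were joined to Ensembl release 115 genes and the RefSeq genome of the same assembly (WBcel235). For positions and operon-like starts a promoter region was tied to its nearest 5′ end. In the gene lists every gene whose promoter window held the summit was counted. Coordinates are 1-based. Small RNA genes within 200 bp of a summit, windows of 101 bp, 14 motifs and 21 gene lists were used. Fisher's exact tests and a permutation test with 100000 resamples compared peaks with promoter regions ranked just below. P-values were adjusted by the Benjamini-Hochberg method over 4 comparisons or 2080 6-base sequences, with 0.05 as the threshold. The peaks, lists and tests were chosen with earlier results of these data known. Named genes were the 30 strongest peaks, all list genes with a peak, 5 peaks on each side of the list's limit, the 5 largest differences in log2 rank between replicates and the 10 strongest divergent and operon-like promoters. A few were named after their values were seen: promoters with paired peaks, downstream summits or shared sequence, and the ndu genes. Alternatives were other promoter and summit windows, a wider distance to small RNA genes, a wider gap between genes, the strongest 321 peaks, peaks high in both replicates and each replicate alone. Python 3.11.15, numpy 2.4.6, pandas 2.3.3, scipy 1.17.1 and matplotlib 3.10.9 were used.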

Additional observations from a re-analysis of the deposited data

How the results depend on the processing

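The upstream position of the summits, the lower share of downstream summits (odds ratio 0.3039 to 0.5341) and the higher GC content (difference 1.878 to 3.66 percentage points) kept their direction and their side of the threshold under every alternative run for them. The share of peaks in the set was 26.6% with a promoter window from 500 bp upstream to 100 bp downstream, 31.2% among the strongest 321 peaks, 31.4% among peaks in the top 642 of both replicates and 30.2 to 37.1% from single replicates. The count of 6-base sequences called was 0 with that shorter promoter window and with summit windows of 51 bp, 2 with windows of 100 bp to each side, 2 among peaks high in both replicates, and 1 to 4 from single replicates. Replicate 1 alone called 0 as more frequent and 1 as less frequent, and replicate 2 alone 3 and 1. The odds ratio of CCGCAC was 5.61 with the shorter promoter window (adjusted p = 0.073 by Fisher's exact test), 6.184 with 51 bp (0.24) and 2.957 with 100 bp to each side (0.05 after rounding). CCGCAC did not pass in any of these settings. Over all alternatives its odds ratio was 1.78 to 6.353. The odds ratio of divergent promoters was 1.583 to 1.726 from single replicates and passed in replicate 1 only. That of operon-like starts turned to 1.085 among the strongest 321 peaks and 1.141 with a gap of 1000 bp, and passed in neither (Fisher's exact test, adjusted p = 0.77 and 0.58). Ribosomal protein genes with a peak numbered 7 among the strongest 321 peaks, 6 among peaks high in both replicates and 7 to 11 from single replicates. Of the promoter peaks, 35.8% were in the top 321 and 83.0% in the top 1284 of replicate 1, and 45.4% and 100% in those of replicate 2. The cause of these changes was not tested. The unknown depth limits the comparison of replicates. No paired analysis was possible because the study has 1 group. Alternatives for the summit position and the gene lists were chosen after seeing the data.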

Other observations

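TGACGTCA, a self-complementary sequence known as the core bound by CREB and ATF family factors, was in the windows of 4 promoter peaks: W01D2.3 (signal 460.5), xbp-1 (215.6), Y43F8B.2 (208.3) and cpf-2 (163.0). It was in 1 of the 249 promoter regions ranked just below (0.402%), in 0 of 458 flanks and in 0.621% of all promoters. A run of 10 CA repeats was in the windows of sto-4 (266.9) and spat-3 (245.8), which through it shared 60 bases. That run was in 0.873% of the promoter peak windows, 1.61% of the regions just below, 3.16% of the peaks outside promoters and 0.02% of all promoters. Other pairs of promoter peak windows also shared sequence, with a longest shared stretch of 33 bases for T13C5.6 and ZK816.3, 22 for eel-1 and Y32B12B.4, and 21 for rpl-3 and cox-5A. These patterns were noticed after the windows had been seen.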
